A study of Mus musculus with 7 samples.

Results

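Trace amine-associated receptors were described through 10 genes, Taar2, Taar3, Taar4, Taar5, Taar6, Taar7d, Taar7e, Taar7f, Taar8c and Taar9. They were taken by name from a list, out of 54532 genes in the expression tables, and all 10 had a row. The libraries were made from mRNA of cells sorted by fluorescence from mouse olfactory epithelium. Mature olfactory sensory neurons were sorted from OMP-GFP mice at postnatal days 2, 7 and 16 (P2, P7 and P16; 3 libraries). Intermediate progenitor cells were sorted from Neurog1-GFP mice at P3, P7, P9 and P16 (4 libraries). OMP-GFP marks cells that use the promoter of Omp, a protein of mature olfactory neurons, and Neurog1-GFP marks cells that use the promoter of Neurog1, a transcription factor of neuronal progenitors. Each library is a pool of purified cells, and each age has 1 library per population. Population and mouse line coincide, so their effects cannot be told apart, and whether the libraries stem from different animals is not stated. The p-values below therefore measure the spread between these libraries, age included.

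Trace amine-associated receptors are G protein-coupled receptors that sense volatile amines, many of them made by microbes, by decay or excreted in urine. Except for Taar1, a receptor of the brain, they are used as odorant receptors in the nose, where a neuron normally expresses a single receptor gene and a Taar neuron takes a Taar in place of a member of the large olfactory receptor (Olfr) family. Taar2, Taar3 and Taar4 fall in the branch whose known ligands are mainly primary amines, and Taar5 to Taar9 in the branch that mainly detects tertiary amines. Taar neurons lie mostly in the dorsal part of the epithelium and use the same cyclic AMP cascade as other canonical olfactory neurons.

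Counts on genes summed to 24203965 to 25930727 per library, and 17975 genes passed the filter on low counts. Omp averaged 1936 ± 442 CPM (counts scaled to library size) in mature neurons, against 2566 ± 632 CPM in progenitors (SD, n = 3 and 4), which did not pass the test (adjusted p = 0.179, edgeR quasi-likelihood test with Benjamini-Hochberg adjustment). Neurog1 averaged 1.56 ± 0.49 CPM in mature neurons, against 500.0 ± 225 CPM in progenitors. The summed level of 10 mature neuron markers was 17784 to 25924 CPM in mature neurons, against 6282 to 9477 CPM in progenitors. The same sum for 9 immature neuron markers was 1922 to 2864 CPM in mature neurons, against 8001 to 9259 CPM in progenitors, and for 10 progenitor markers 1418 to 1631 CPM in mature neurons, against 4705 to 5538 CPM in progenitors. Markers of other cells also differed between the sorts. Sustentacular cell markers (8 genes) summed to 2815 to 3257 CPM in mature neurons, against 1437 to 2007 CPM in progenitors. Most of that sum came from Sult1d1 (mean 1545 against 641 CPM) and Cyp2g1 (857 against 581 CPM). Of the 8 genes, 3 were called higher in mature neurons and 0 lower (edgeR), and the rest did not pass the test. Leukocyte markers (9 genes) summed to 18.1 to 62.7 CPM in mature neurons and 7.6 to 14.7 in progenitors. Ensheathing glia markers (6 genes) summed to 21.3 to 56.5 CPM in mature neurons and 5.93 to 16.3 in progenitors. None of the markers on these lists was at 0 in all libraries, and their part in the results below was not tested.

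The Taar genes form 1 uninterrupted cluster on chromosome 10. In the GENCODE vM21 annotation of GRCm38 the 16 annotated Taar genes, 15 of them protein coding, span chr10:23920356-24109534, which is 189.2 kb, with no other protein-coding gene between them. The members run in the order of their numbers, with Taar2 at chr10:23938572-23941583, Taar3 at chr10:23949558-23950589, Taar4 at chr10:23960494-23961537 and Taar5 at chr10:23970706-23971719, all on the plus strand. Taar6 at chr10:23984609-23985646 lies on the minus strand. Taar7d at chr10:24027222-24028298, Taar7e at chr10:24037614-24038690 and Taar7f at chr10:24049510-24050586 lie on the plus strand, and Taar8c at chr10:24100878-24101912 and Taar9 at chr10:24108488-24109534 on the minus strand. Taar2 has 2 annotated exons and each of the other 9 members has 1. No annotated gene overlaps any member. The annotated start of every member is its start codon, so untranslated sequence is not part of these gene models.

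**Figure D1:**
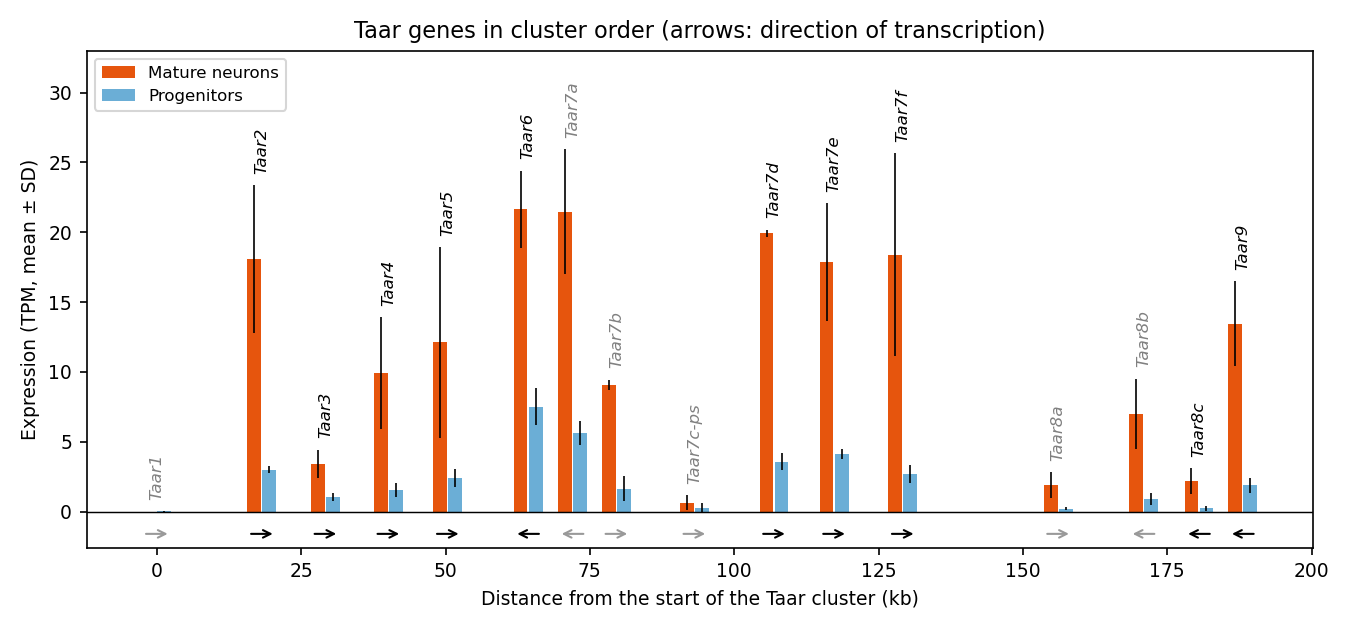
TPM (vertical axis, bars as mean ± SD) of the 16 Taar genes at their distance in kb from the start of the cluster (horizontal axis), with mature neurons (3 libraries, orange) left of progenitors (4 libraries, blue), arrows for the direction of transcription and grey names for Taar genes that are no members. Taar6 has the tallest bars of the members, at 21.6 TPM in mature neurons and 7.49 TPM in progenitors, and Taar7d, Taar7e and Taar7f stand side by side.

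Some members are near-identical copies, which decides how their counts can be read. Over 1077 bases, the transcripts of Taar7e and Taar7f differed at 50 positions, those of Taar7d and Taar7f at 62 and those of Taar7d and Taar7e at 67. The first 120 coding bases of these 3 genes (GENCODE vM21, GRCm38, plus strand, chr10:24027222-24027341, chr10:24037614-24037733 and chr10:24049510-24049629) show how few letters separate them; capitals mark the 12 columns at which the 3 genes are not all alike.
Taar7d: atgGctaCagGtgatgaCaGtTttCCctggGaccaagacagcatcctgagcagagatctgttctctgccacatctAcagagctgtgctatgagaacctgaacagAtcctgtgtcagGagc
Taar7e: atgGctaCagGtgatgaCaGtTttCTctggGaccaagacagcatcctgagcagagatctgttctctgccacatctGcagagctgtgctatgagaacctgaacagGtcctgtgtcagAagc
Taar7f: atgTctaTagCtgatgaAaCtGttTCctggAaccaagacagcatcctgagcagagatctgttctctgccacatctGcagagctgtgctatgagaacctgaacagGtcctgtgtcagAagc

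Taar8c is closer still to its neighbours Taar8a and Taar8b. Over 1035 bases it differed from Taar8a at 20 positions and from Taar8b at 26, and it shared an unbroken run of 326 bases with Taar8a. In the first 120 coding bases (GENCODE vM21, GRCm38; Taar8a on the plus strand at chr10:24076500-24076619, Taar8b and Taar8c on the minus strand at chr10:24092175-24092294 and chr10:24101793-24101912) a single column, in capitals, separated the 3 genes, and there Taar8a and Taar8c had the same letter.
Taar8a: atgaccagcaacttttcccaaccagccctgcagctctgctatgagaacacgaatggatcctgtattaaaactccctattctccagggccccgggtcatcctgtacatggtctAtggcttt
Taar8b: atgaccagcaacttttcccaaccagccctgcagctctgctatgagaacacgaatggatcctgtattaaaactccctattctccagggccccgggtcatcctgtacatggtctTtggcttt
Taar8c: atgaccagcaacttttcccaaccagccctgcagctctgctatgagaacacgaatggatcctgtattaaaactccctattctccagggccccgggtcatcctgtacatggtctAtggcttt

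These shared stretches bear on the counts, because reads that mapped to more than 1 place were kept apart from the genes in the deposited count table (11.9% to 13.9% of all counts per library). All stretches of 50 bases in Taar2, Taar3, Taar4, Taar5 and Taar9 occurred in no other annotated gene, and 99.9% of those in Taar6. The share was 70.5% in Taar7d, 48.7% in Taar7f, 46.1% in Taar7e and 27.5% in Taar8c. Counts per unit of TPM (a level scaled for transcript length and library total) in mature neurons were 15.7 to 19.8 for the 6 members with nearly all stretches of their own, 13.3 for Taar7d, 9.45 for Taar7f, 7.96 for Taar7e and 6.05 for Taar8c. The levels and folds of Taar7d, Taar7e, Taar7f and Taar8c are for this reason less certain than those of the other 6.

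**Figure D2:**
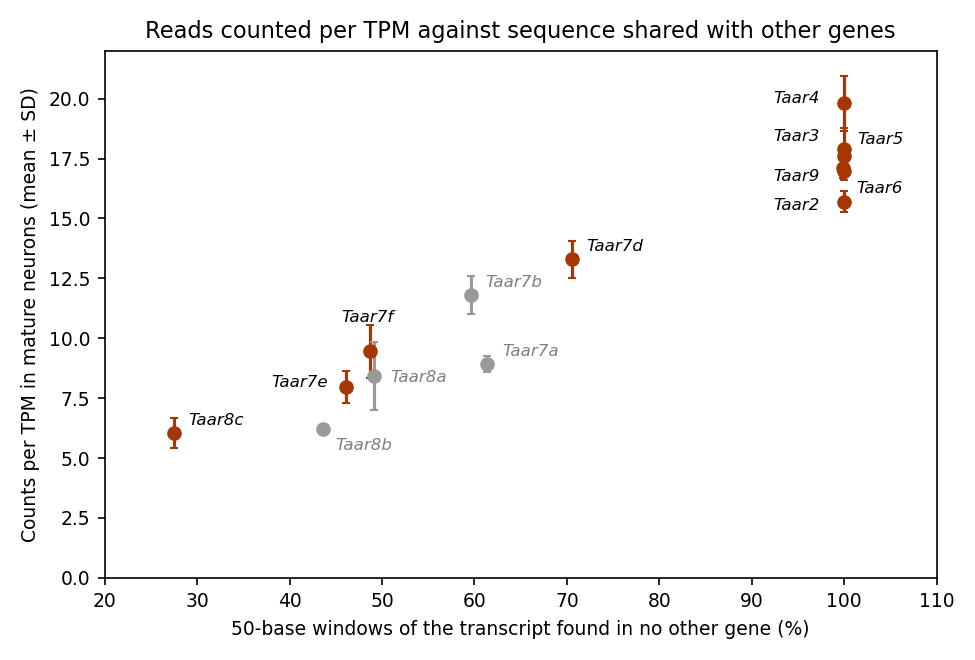
Counts per TPM in mature neurons (mean ± SD over 3 libraries, vertical axis) against the percentage of 50-base stretches of a transcript that occur in no other annotated gene (horizontal axis), for the listed members in orange and other Taar genes in grey. The 6 members at 99.9% or above sit at 15.7 to 19.8 counts per TPM, and Taar8c, at 27.5%, sits lowest at 6.05.

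Trace amine-associated receptor mRNA was higher in mature neurons than in progenitors for every member that could be tested. Of the 10 members, 9 passed the filter on low counts and all 9 were higher in mature neurons by the edgeR quasi-likelihood test (Benjamini-Hochberg adjusted p under 0.05), against 28.8% of all tested genes that were higher and 30.0% that were lower. The median log2 fold change of the 9 was 2.63, with a range of 1.68 to 2.97, against a median of 0.01 over all tested genes. Each of the 9 had a log2 fold change above 1, which with the call held for 12.8% of all tested genes. On log2(TPM + 1), limma called all 10 members higher, against 22.5% of the genes tested there. That fit kept genes with at least 1 TPM in 3 or more libraries. Taar8c reached 1 TPM only in mature libraries, and Taar3 in progenitors only at P9 (1.37 TPM) and P16 (1.06 TPM). Both needed the mature libraries to pass, so their calls by limma add no support. For all 10 members the TPM values of the 3 mature libraries lay above those of the 4 progenitor libraries. Among all tested genes, 29.2% had mature libraries that lay wholly above the progenitor libraries on the CPM scale. In sorted pools, fewer Taar-expressing cells and less Taar mRNA per cell cannot be told apart.

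Summed over the 10 members, the level was 157, 152 and 102 TPM in mature neurons of P2, P7 and P16, against 25.3, 31.0, 28.7 and 27.0 TPM in progenitors of P3, P7, P9 and P16. The mean was 137 ± 30.6 TPM in mature neurons and 28.0 ± 2.46 TPM in progenitors (SD, n = 3 and 4), a ratio of 4.89. The counts behind these sums were 2195, 2099 and 1516 in mature neurons and 388, 423, 413 and 404 in progenitors. The progenitor libraries were close together at all 4 ages, and the P16 library was the lowest of the mature neurons.

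**Figure D3:**
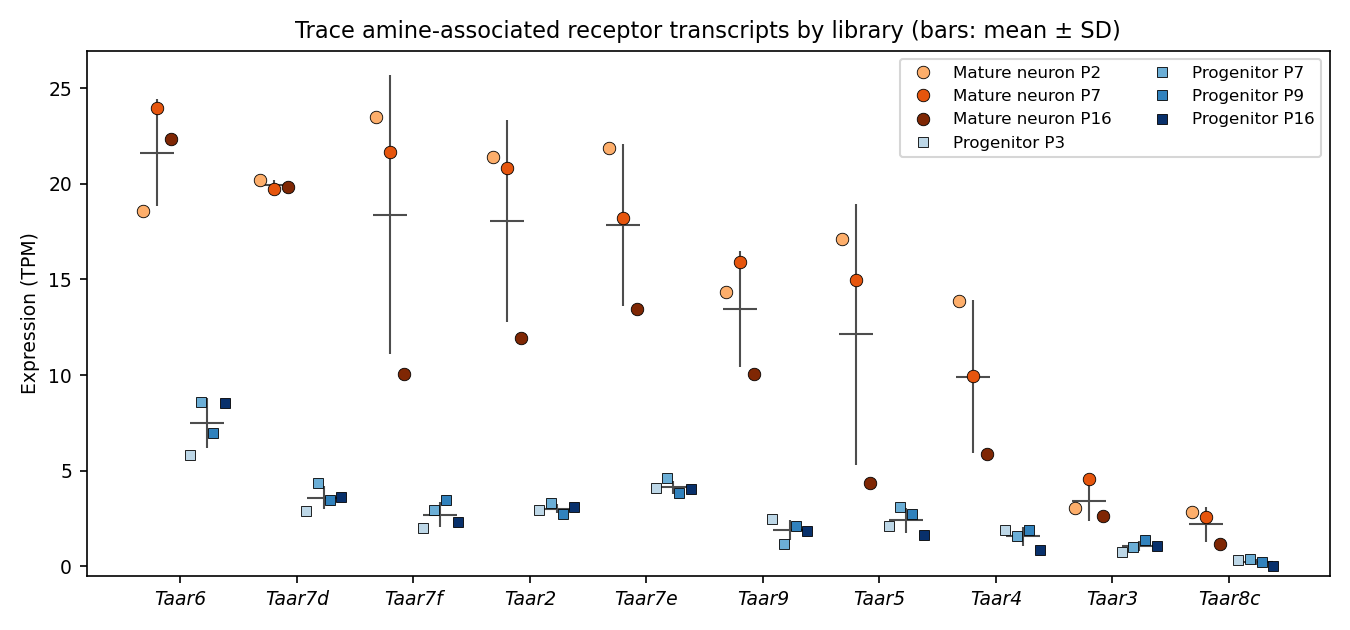
TPM (vertical axis) of the 10 members in every library, with mature neurons as orange circles left of progenitors as blue squares, darker shades for older ages and lines for mean ± SD (n = 3 and 4). The mature libraries lie above the progenitor libraries for all 10 members, and Taar3 and Taar8c are lowest.

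Taar2, Taar3 and Taar4, the receptors of the primary amine branch, summed to 38.4, 35.3 and 20.4 TPM in mature neurons of P2, P7 and P16, against 5.58, 5.84, 5.99 and 5.0 TPM in progenitors of P3, P7, P9 and P16. Taar2 had 21.4, 20.8 and 11.9 TPM in mature neurons, against 2.94, 3.28, 2.71 and 3.08 TPM in progenitors. All mature libraries were above all progenitor libraries, with P16 lowest among them. The log2 fold change of Taar2 was 2.71 (SE 0.22, adjusted p = 3.26e-05, edgeR quasi-likelihood test with Benjamini-Hochberg adjustment), the smallest p of the 3 genes.

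Taar3, a receptor for isoamylamine, had 3.06, 4.56 and 2.6 TPM in mature neurons of P2, P7 and P16, against 0.73, 0.99, 1.37 and 1.06 TPM in progenitors of P3, P7, P9 and P16. Its levels were the lowest of the branch in 6 of the 7 libraries, with Taar4 lower in the P16 progenitor library, and the groups did not overlap. Taar3 was higher in mature neurons by a log2 fold change of 1.89 (SE 0.27, adjusted p = 0.000447, edgeR), on 47 to 77 counts per mature library and 15 to 24 per progenitor library. Taar4, a receptor for phenylethylamine, which is found in carnivore urine, had 13.9, 9.93 and 5.89 TPM in mature neurons, against 1.91, 1.57, 1.91 and 0.86 TPM in progenitors. The P16 library was the lowest of both populations, and the groups did not overlap. Taar4 was higher in mature neurons by 2.81 on the log2 scale (SE 0.31, adjusted p = 0.000138, edgeR).

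The 7 members of the tertiary amine branch, Taar5 to Taar9, summed to 118.5, 117 and 81.3 TPM in mature neurons of P2, P7 and P16, against 19.7, 25.2, 22.75 and 21.96 TPM in progenitors of P3, P7, P9 and P16. Taar2 to Taar4 made up 22.6% ± 2.26 of the members' TPM in mature neurons and 20.1% ± 1.71 in progenitors (SD, n = 3 and 4), and the ranges of the populations overlapped.

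Taar5, the receptor for trimethylamine, an attractive component of male mouse urine, had 17.1, 14.95 and 4.33 TPM in mature neurons of P2, P7 and P16, against 2.1, 3.1, 2.73 and 1.65 TPM in progenitors of P3, P7, P9 and P16. The P16 mature library was far below the other mature libraries, yet above every progenitor library. The log2 fold change was 2.47 with the largest SE of the members, 0.45 (adjusted p = 0.00177, edgeR). Without the P16 mature library the log2 fold change of Taar5 was 2.87.

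Taar6 had 18.6, 24.0 and 22.4 TPM in mature neurons of P2, P7 and P16, against 5.84, 8.61, 6.99 and 8.52 TPM in progenitors of P3, P7, P9 and P16. It was the highest member in all 4 progenitor libraries and in the mature libraries of P7 and P16, and the fifth highest in the mature library of P2. Its log2 fold change, 1.68, was the smallest of the tested members by edgeR (SE 0.19, adjusted p = 0.000146); on log2(TPM + 1) that of Taar3 was smaller. Taar6 supplied 11.8%, 15.7% and 22% of the members' TPM in mature neurons and 23.1%, 27.8%, 24.3% and 31.6% in progenitors, and these ranges did not overlap. The ranges of Taar2 did not overlap either, in the other direction. Its share was 11.7% to 13.7% in mature neurons and 9.43% to 11.6% in progenitors.

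Taar7d, Taar7e and Taar7f, the near-identical copies shown above, summed to 65.6, 59.6 and 43.4 TPM in mature neurons of P2, P7 and P16, against 9.01, 11.9, 10.7 and 9.95 TPM in progenitors of P3, P7, P9 and P16. Taar7d had 20.2, 19.7 and 19.9 TPM in mature neurons, against 2.91, 4.34, 3.47 and 3.6 TPM in progenitors. Its mature libraries were the closest together of any member, at 19.9 ± 0.25 TPM (SD, n = 3), and its log2 fold change was 2.63 (SE 0.17, adjusted p = 1.27e-05, edgeR), the smallest p of the 9 tested members. Taar7e had 21.9, 18.2 and 13.45 TPM in mature neurons, against 4.1, 4.61, 3.8 and 4.04 TPM in progenitors. Its groups did not overlap, and the log2 fold change was 2.56 (SE 0.21, adjusted p = 3.46e-05, edgeR). Taar7f, which responds to N-methylpiperidine, had 23.5, 21.65 and 10.1 TPM in mature neurons, against 2.0, 2.96, 3.46 and 2.31 TPM in progenitors. The P16 mature library of Taar7f was well below the other mature libraries but above all progenitor libraries, with a log2 fold change of 2.86 (SE 0.28, adjusted p = 6.98e-05, edgeR).

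Taar9 had 14.4, 15.9 and 10.1 TPM in mature neurons of P2, P7 and P16, against 2.44, 1.17, 2.08 and 1.84 TPM in progenitors of P3, P7, P9 and P16. The groups lay far apart, and its log2 fold change of 2.97 (SE 0.27, adjusted p = 5.13e-05) was the largest of the tested members by edgeR. Taar8c had 2.85, 2.57 and 1.16 TPM in mature neurons, against 0.3, 0.37, 0.22 and 0 TPM in progenitors. It was the lowest member in all 7 libraries. In counts these were 19, 14 and 7 in mature neurons, against 2, 2, 2 and 0 in progenitors. The sums were 40 counts in mature neurons (exact 95% Poisson interval 28.6 to 54.5) and 6 in progenitors (2.2 to 13.1), which cover counting error only. Taar8c did not pass the filter on low counts; with no filter its log2 fold change was 3.22 (SE 0.64, adjusted p = 0.00233, edgeR).

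Ordered by mean TPM in mature neurons, the members ran from Taar6 (21.6 ± 2.78), Taar7d (19.9 ± 0.25), Taar7f (18.4 ± 7.29), Taar2 (18.1 ± 5.31) and Taar7e (17.9 ± 4.23) to Taar9 (13.4 ± 3.04), Taar5 (12.1 ± 6.84), Taar4 (9.9 ± 4.0), Taar3 (3.41 ± 1.03) and Taar8c (2.19 ± 0.91), all as mean ± SD over 3 libraries. Between neighbours in this order, the gap exceeded the larger of the 2 SDs only from Taar7e to Taar9, from Taar4 to Taar3 and from Taar3 to Taar8c. The other neighbours did not differ beyond their spread. The progenitor order was similar at its ends, with Taar6 at 7.49 ± 1.33 TPM at the top and Taar8c at 0.22 ± 0.16 TPM at the bottom (SD, n = 4).

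**Figure D4:**
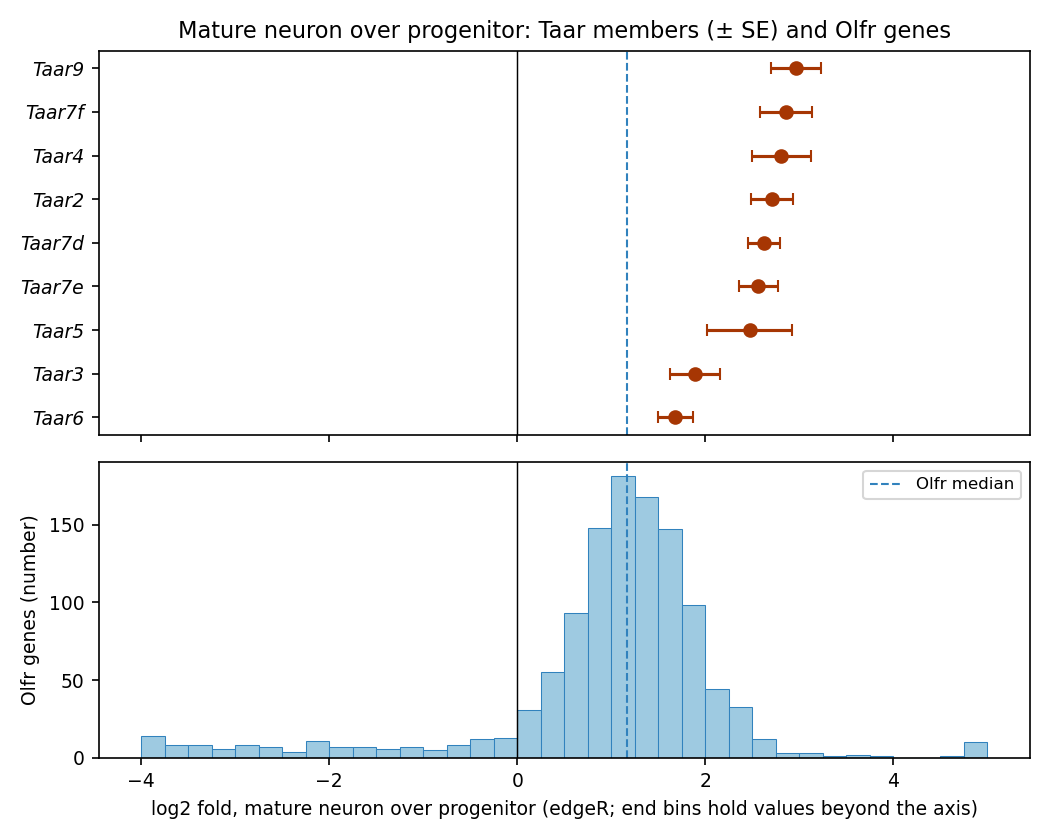
Log2 fold change of mature neurons over progenitors (horizontal axis, edgeR) for the 9 tested members with SE bars (upper panel) and as a histogram of the 1162 tested Olfr genes, whose end bins also hold values beyond the axis (lower panel). The members lie between 1.68 (Taar6) and 2.97 (Taar9), and the dashed line is the Olfr median of 1.17.

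The other Taar genes were measured alongside. Of 6, 3 passed the filter and all 3 were higher in mature neurons, against 28.8% of all tested genes. The log2 fold changes were 2.05 for Taar7a, 2.67 for Taar7b and 3.0 for Taar8b (adjusted p = 5.1e-05, 0.000377 and 0.00063, edgeR). Taar8b, with 26 to 57 counts per mature library and 2 to 10 per progenitor library, passed the filter only through the mature neurons, so its call adds no support. All 9 tested members had at least 15 counts in every progenitor library. Taar1, the receptor of the brain, was listed at 0 TPM in 6 of the 7 libraries and at 0.06 TPM in the P3 progenitor library, where it had 1 count. Over all 16 Taar genes the sum was 177 ± 38.9 TPM in mature neurons and 36.6 ± 3.66 TPM in progenitors (SD, n = 3 and 4).

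The annotated genes on either side of the cluster did not pass the test. Stx7, which encodes a membrane fusion protein and lies 39.8 kb from the cluster, had 153 ± 5.58 TPM in mature neurons and 143 ± 10.4 TPM in progenitors (log2 fold change 0.18, adjusted p = 0.0658, edgeR), with overlapping groups. Moxd1, on the same side at 114 kb, had 2.4 ± 1.21 TPM in mature neurons and 3.43 ± 0.48 TPM in progenitors (log2 fold change -0.41, adjusted p = 0.318, edgeR). Vnn1 and Vnn3, on the other side, did not pass the filter, with at most 0.11 TPM in any library.

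The much larger Olfr family gives the scale for these changes. Of 1406 Olfr genes, 1162 were tested, of which 809 were higher and 91 lower in mature neurons. Over all tested genes, 28.8% were higher and 30.0% lower. The tested Olfr genes had a median log2 fold change of 1.17. The log2 fold change of Taar6 was above that of 79.1% of the tested Olfr genes and that of Taar3 above 87.7%. The other 7 tested members lay above 97.1% to 98.5% of them. This is a description of where the members lie, without a test of the families against each other.

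As a share of all counts on Taar members and Olfr genes, the 10 members took 0.534%, 0.511% and 0.369% in mature neurons of P2, P7 and P16. The Wilson 95% intervals, for counting error only, were 0.512% to 0.557%, 0.49% to 0.533% and 0.351% to 0.388%. In progenitors at P3, P7, P9 and P16 the share was 0.219%, 0.209%, 0.189% and 0.182%, with intervals reaching from 0.165% to 0.242% over the 4 libraries. The mature libraries were all above the progenitor libraries. The mean was 0.471% ± 0.089 in mature neurons and 0.2% ± 0.017 in progenitors (SD, n = 3 and 4). In TPM the share averaged 1.01% ± 0.22 in mature neurons and 0.435% ± 0.035 in progenitors. Counts on Olfr genes were 408656 to 409024 per mature library and 176650 to 221740 per progenitor library.

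Genes that act with the receptors also differed between the populations. Of 17 genes of olfactory transduction, 14 were higher and 1 lower in mature neurons, against 28.8% higher and 30.0% lower over all tested genes. The transduction genes had a median log2 fold change of 1.74. Those with the smallest p were Gng13, a G protein gamma subunit (1.64, adjusted p = 2.78e-05), Ano2, the calcium-activated chloride channel (2.05, 3.67e-05), and Slc24a4, a sodium and calcium exchanger (2.19, 4.91e-05; edgeR log2 fold changes and adjusted p). The gene that was lower, named after its value was seen, was Arrb2, which encodes an arrestin (log2 fold change -0.44, adjusted p = 0.00191, edgeR). Of 5 genes that help receptors to the cell surface, 4 were higher and 1 did not pass the test. The shares over all tested genes were again 28.8% higher and 30.0% lower. Among the higher genes were Rtp2 (log2 fold change 1.19), Reep1 (1.46) and Rtp1 (1.36, adjusted p = 2.31e-05, 2.7e-05 and 3.71e-05, edgeR). Ric8b, also called higher, is on the transduction list too, so it was counted in both. Gng13, Ano2 and Rtp1 are also among the mature neuron markers above.

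Genes linked to the choice of a receptor moved mainly the other way. Of 21 tested, 16 were lower in mature neurons and 2 higher, against 30.0% lower and 28.8% higher over all tested genes. Lhx2 and Ebf3, both lower, are also among the progenitor markers above. The 21 genes had a median log2 fold change of -0.64. The smallest p belonged to Ehmt1, a histone methyltransferase, to Tshz1, a zinc finger factor, and to Kdm1a, a histone demethylase that is transiently needed for receptor activation, with log2 fold changes of -1.62, -1.71 and -1.3 (adjusted p = 5.05e-06, 1.09e-05 and 1.29e-05, edgeR). The 2 that were higher, named after their values were seen, were Ebf4 (0.57) and Dnmt3a (0.30; adjusted p = 0.00396 and 0.0348, edgeR). Of 18 listed genes of other chemosensory neuron types 7 were tested, of which 4 were higher and 1 lower. Over all tested genes, 28.8% were higher and 30.0% lower. The higher genes include Gucy2d, the guanylate cyclase of a neuron type that uses cyclic GMP. Gucy2d had 14.8 CPM in mature neurons, against 1.9 CPM in progenitors (log2 fold change 2.95, adjusted p = 9.7e-05, edgeR). Car2, a carbonic anhydrase of the same neurons, had 185 CPM in mature neurons, against 39.9 CPM in progenitors (log2 fold change 2.21, adjusted p = 0.000151, edgeR). Ms4a6d changed by 3.05 (adjusted p = 0.000659, edgeR), at a level of 0.737 CPM in mature neurons, against 0.0841 CPM in progenitors. Ms4a6d passed the filter on low counts only through the mature neurons. So did Cnga3, the remaining gene called higher, at 1.86 CPM in mature neurons, against 0.383 CPM in progenitors. The calls of Ms4a6d and Cnga3 thus add no support. The gene that was lower, named after its value was seen, was Ms4a6b, at 0.524 CPM in mature neurons, against 0.98 CPM in progenitors (log2 fold change -0.9, adjusted p = 0.0275, edgeR). Trpm5 and Ms4a7 were tested and did not pass (adjusted p = 0.0857 and 0.063, edgeR). Pde2a, on the same list, did not pass the filter, at 0.198 CPM in mature neurons, against 0.169 CPM in progenitors.

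No member passed the test for a change with age. In a model with population and log2 of postnatal day, 0 of the 9 tested members were called by the edgeR quasi-likelihood test, and 0.0% of all tested genes were called in either direction. At an unadjusted p under 0.05, Taar4 and Taar5 had negative slopes and Taar6 a positive one; across all tested genes that share was 11.2% lower and 9.64% higher. The slope per doubling of age was -0.34 for Taar4 (SE 0.09, adjusted p = 0.107), -0.44 for Taar5 (SE 0.18, adjusted p = 0.215) and 0.17 for Taar6 (SE 0.07, adjusted p = 0.213; edgeR log2 units). Without the P16 mature library the slope of Taar5 was -0.14. DESeq2 called 1 member, Taar4 (slope -0.33, adjusted p = 0.0491), against 5.26% of genes called lower, and limma on log2(TPM + 1) called 0. Using the postnatal day itself also called Taar4 alone, at -0.07 per day (adjusted p = 0.0383, edgeR), against 3.82% of all tested genes called lower in that fit. In mature neurons alone edgeR called 0 members, with negative slopes of Taar4, Taar5 and Taar7f at an unadjusted p under 0.05, against 9.39% of all tested genes. For a difference of slopes between the populations edgeR, DESeq2 and limma called 0 members, against 0.0% of genes by edgeR and 0.034% by DESeq2. At an unadjusted p under 0.05 it was 0 members by edgeR, against 5.98% of all tested genes. The slopes were thus not shown to differ between mature neurons and progenitors.

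Single libraries at the ends of the age range can be set against each other for counting error only. Between the mature libraries of P16 and P2, the CPM ratio was 0.259 for Taar5 (76 against 297 counts, exact 95% interval 0.199 to 0.335), 0.48 for Taar4 (0.384 to 0.596), 0.484 for Taar7f (0.38 to 0.613) and 0.579 for Taar2 (0.482 to 0.693). It was 1.27 for Taar6 (392 against 313 counts, 1.09 to 1.48) and 1.06 for Taar7d (0.896 to 1.26), whose interval includes 1. The remaining members, Taar3, Taar7e, Taar9 and Taar8c, had ratios of 0.836, 0.693, 0.707 and 0.373. Of the 9 tested members 7 had a ratio below 1, with a median of 0.693, against a median of 0.741 over 1105 Olfr genes and 0.996 over all genes with enough counts.

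Between the mature libraries of P7 and P2 the median ratio was 0.937 over the 9 tested members, 6 of which were below 1, and 1.0 over Olfr genes. At P7 the ratio to P2 was 0.743 for Taar4 (exact 95% interval 0.613 to 0.898) and 0.79 for Taar7e (0.625 to 0.996), both below 1, and 1.29 for Taar6 (1.11 to 1.51). Between P16 and P7 the median was 0.646 over the members, with Taar5 at 0.286 (0.219 to 0.371), and 0.75 over Olfr genes. In progenitors, between P16 and P3, it was 0.892 over the 9 tested members and 1.25 over Olfr genes, with Taar6 at 1.6 (exact 95% interval 1.23 to 2.08) and Taar4 at 0.521 (0.283 to 0.929). In the P16 mature library the mature neuron markers summed to 25924 CPM, against 17784 at P2 and 19894 at P7. Leukocyte markers there summed to 62.7 CPM, against 24.7 at P2 and 18.1 at P7, and 5 erythroid markers to 288 CPM, against 34.9 and 41.8. The part of these differences in the age ratios was not tested, and with 1 library per age an age cannot be told apart from its library.

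**Figure D5:**
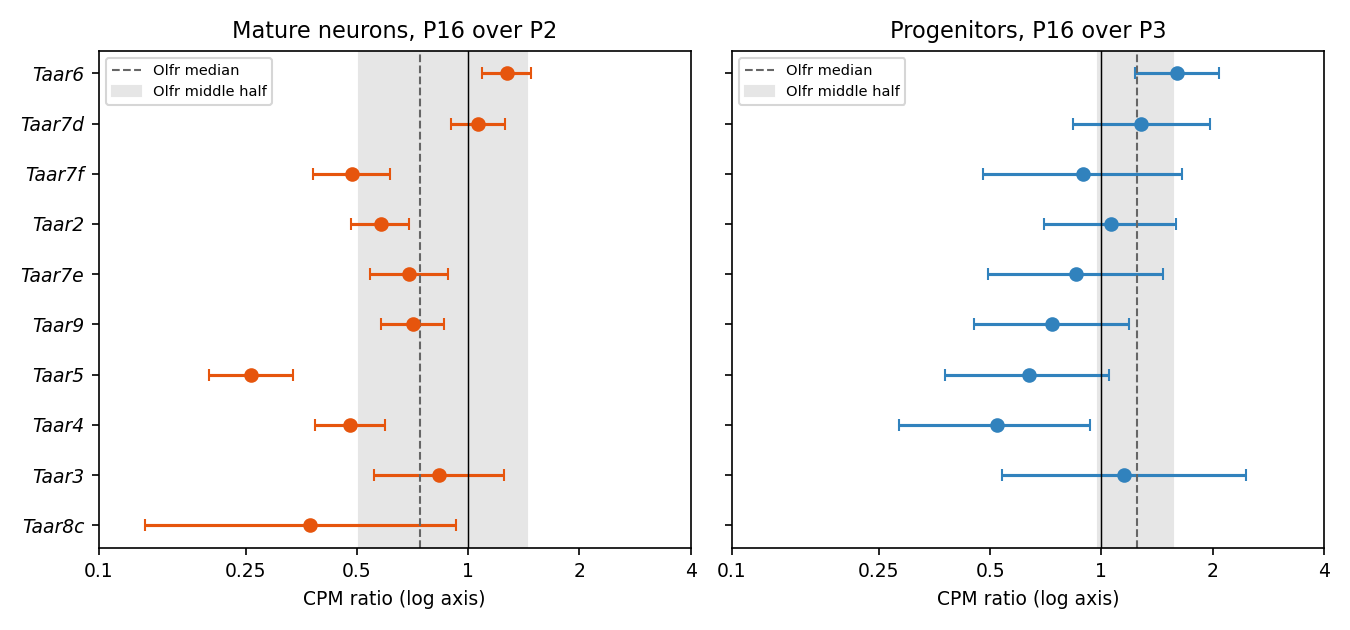
CPM ratio (log axis) of the P16 library over the earliest library, for mature neurons (left, over P2) and progenitors (right, over P3), with exact 95% intervals that cover counting error only; the dashed line is the median of Olfr genes and the grey band their central range from the lower to the upper quartile. In mature neurons Taar5 is lowest at 0.259 and Taar6 highest at 1.27; Taar8c has no point in progenitors, where its counts were too few.

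Taar5 and Taar6 are neighbours in the cluster that lay at opposite ends of the age ratios in mature neurons, so their sequences around the start are given. The windows hold 250 bases before to 50 bases from the annotated start on, in the RefSeq annotation of GRCm38.p6, with the start codon in capitals. Taar5 is on the plus strand at chr10:23970456-23970755 and Taar6 on the minus strand at chr10:23985597-23985896.
Taar5: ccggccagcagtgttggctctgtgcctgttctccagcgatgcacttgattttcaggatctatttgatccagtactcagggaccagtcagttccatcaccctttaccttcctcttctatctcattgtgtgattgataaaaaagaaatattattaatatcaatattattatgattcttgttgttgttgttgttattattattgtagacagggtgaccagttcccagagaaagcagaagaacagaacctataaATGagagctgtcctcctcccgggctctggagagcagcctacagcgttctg
Taar6: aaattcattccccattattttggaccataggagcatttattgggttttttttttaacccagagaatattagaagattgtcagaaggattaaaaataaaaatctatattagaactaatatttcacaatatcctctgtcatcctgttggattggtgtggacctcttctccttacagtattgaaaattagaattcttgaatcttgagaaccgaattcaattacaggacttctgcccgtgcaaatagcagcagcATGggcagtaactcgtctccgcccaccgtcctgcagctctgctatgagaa

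A search of both strands of such windows for TAATTA, a core of homeodomain factor sites, found it in 0 of the 8 members that had a window. It was in 5.3% of all 32851 windows and in 18.6% of 944 Olfr windows. As the annotated start of the members is the start codon, these windows may lie downstream of the true promoters. No match says only that these letters are not in this window.

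Genes with the profile most like that of the summed Taar counts were found among 9708 genes with a mean of at least 10 CPM, by the root mean square distance between centred log2 CPM values over the 7 libraries. The 5 nearest were Vcp (0.166), Hjurp (0.199), Metap1d (0.224), Manea (0.229) and Sytl2 (0.234). Vcp, a protein-remodelling ATPase, had 135 ± 4.65 CPM in mature neurons, against 24.4 ± 1.01 CPM in progenitors (SD, n = 3 and 4), close to the members' ratio but with no lower value at P16, where it had 133 CPM against 132 at P2. The likeness is a description over 7 libraries and was not tested.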

How the data were processed

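The samples were 7 mouse libraries of sorted cells. Per the labels, RNA was extracted with TRIzol and libraries were made with a stranded poly(A) kit. Tools in the submitters' processing notes are STAR 2.6.1c, RSEM and bcl2fastq 2.18, with mm10 as the build. Annotation release and strand setting of the counting are not given here. The authors deposited whole-number read counts per gene, and also TPM, which corrects for transcript length within a library. Entries that name no gene (23.5% to 27.2% of counts) were left out.

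Members and gene lists were chosen with earlier results of these data known. The named genes are all members, the other Taar genes, the 2 nearest protein-coding genes on each side, the 5 nearest profiles, up to 3 called genes with the smallest p per list, Omp and Neurog1. Arrb2, Ric8b, Ebf4, Dnmt3a, Lhx2, Ebf3, Cnga3, Ms4a6b, Trpm5, Ms4a7 and Pde2a were named after their values were seen. Some genes are on more than 1 list. Counts were tested with edgeR 4.0.16 in R 4.3.3 (TMM factors, filterByExpr, quasi-likelihood F test, Benjamini-Hochberg threshold 0.05); age entered as log2 of postnatal day. The fits leave 5, 4 and 3 residual degrees of freedom for population, age slope and difference of slopes. CPM use TMM factors. Alternatives were DESeq2 1.42.0, limma 3.58.1 on log2(TPM + 1) and log2(TPM + 0.1), other scaling, no filter, each library left out and age as a block. On simulated counts for 17975 genes, a log2 change of 2 between populations was recovered for 91% of changed genes and of 1 for 70%. At a log2 change of 1 per doubling of age, recovery was 92% for the age slope and 68% for the difference of slopes. The tested members' age slopes (-0.44 to 0.17) and differences of slopes (-0.37 to 0.03) were smaller in size. Smaller changes were not simulated, so recovery for slopes of the members' size is not known. False calls made up 4.48% to 8.89% of the calls. Only 100 genes per size of change were altered, far fewer than were called between the populations here, so recovery may differ in these data. Stretches and identities come from GENCODE vM21 transcripts, start windows from RefSeq; 8 of 10 members matched a window.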

Additional observations from a re-analysis of the deposited data

How the results depend on the processing

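The higher level in mature neurons held for each tested member under 15 alternatives, with 9 or 10 members called, and all 135 fold changes kept their direction and their call. Leaving out 1 library at a time gave 9 to 10. The count was 9 with postnatal age as a replicate block over P7 and P16 only. The size depended on the scale: on log2(TPM + 1), which compresses low genes, the log2 fold change was 1.10 for Taar3, 2.04 for Taar4, 1.79 for Taar5, 1.85 for Taar7e and 2.32 for Taar9. Taar8c was called in the alternatives in which it was tested (log2 fold change 1.35 on log2(TPM + 1) and 2.95 on log2(TPM + 0.1)), which made the count 10. In limma, Taar3 and Taar8c needed the mature libraries to pass the filter. Without the P16 mature library, Taar8c again passed only through the mature neurons. These calls add no support. The sum over all Taar genes was 177 TPM in mature neurons and 36.6 TPM in progenitors, and the receptor share in TPM 1.01% and 0.435%.

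For the age slope, DESeq2 and postnatal day in place of its logarithm each called 1 member, and leaving out 1 library at a time gave 0 to 0. The sign of the Taar3 slope turned without normalization factors (-0.022) and on postnatal day (-0.0115), and it ran from -0.062 to 0.19 over the left-out libraries. The difference of slopes of Taar9 turned to -0.041 on log2(TPM + 1), -0.014 on log2(TPM + 0.1) and -0.018 on postnatal day. Leaving out 1 library at a time, that difference ran from -0.72 to 0.12 for Taar3, -0.28 to 0.41 for Taar4, -1.32 to 0.29 for Taar5, -0.17 to 0.044 for Taar7d, -0.27 to 0.11 for Taar7e, -0.61 to 0.036 for Taar7f and -0.50 to 0.23 for Taar9; the cause was not tested. Of 117 age slopes 109, and of 117 differences of slopes 101, kept their sign and their side of the threshold. Depth limits Taar8c, with 0 to 2 counts per progenitor library.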
